A study of Mus musculus with 9 samples.

Results

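The mesothelial marker genes Msln, Upk1b, Upk3b, Gpm6a, Lrrn4, Wt1 and Bnc1 were followed over 9 expression arrays of cultured mouse lung cells. Every probe set whose only gene symbol in the platform annotation was one of these genes was taken, which gave 12 probe sets for 7 genes out of 45037 probe sets and 18193 named genes. Msln, Lrrn4, Wt1 and Bnc1 had 1 probe set each, Upk3b and Gpm6a had 2 each and Upk1b had 4. All 12 passed the filter on dim signals. The 7 genes were chosen by their signals on these same arrays, with the group differences already known, and the question was whether Msln follows the rest. Their levels and the differences between groups are therefore a description, without a test.

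The cells came from lungs of female ICR10 mice aged 2 months, and the labels call them type II cells, the surfactant-making cells of the alveolus. All groups were prepared alike: the lung was filled with Dispase for 45 min to free its cells, macrophages were held back on plates with IgG and fibroblasts by adherence, and the remaining cells were kept in culture for 5 days with keratinocyte growth factor on plates coated with matrix proteins. The groups were wild type (Nrf2+/+), knockout (Nrf2-/-) and knockout supplemented with GSH, with 3 arrays in each. GSH is glutathione, the main thiol antioxidant of cells; its dose and timing, and the form of the deleted Nrf2 allele, are not stated in the labels. Each group had 2 arrays in a set here called set 2 and 1 in a set called set 3, after a number in the sample titles whose meaning is not stated.

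Mesothelium is the flat epithelium of mesodermal origin that covers the pleural surface of the lung and lines the other body cavities. It carries keratins like other simple epithelia, but also N-cadherin and the transcription factor WT1, and it can change into cells that resemble fibroblasts. Mesothelin, the product of Msln, is a glycoprotein held at the cell surface by a lipid anchor, where it binds the mucin MUC16; besides mesothelium it is made by some epithelial tumours, lung adenocarcinoma among them. Uroplakins are membrane proteins best known from the plaques of the bladder lining, and WT1 and basonuclin 1 are zinc-finger proteins of the nucleus.

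Labels and cell content were checked first. Nfe2l2, which encodes Nrf2, read 3879 to 4173 on the wild-type arrays and 28.7 to 77.4 on the 6 knockout arrays. Xist lay between 132 and 188 in wild type and between 2444 and 4777 on the knockout arrays, while the Y-linked gene Kdm5d read 289 to 351 against 15.5 to 54.7, so sex-linked transcripts divided the arrays along the genotype although all animals are labelled female. This difference and the genotype cannot be told apart. The control level used here is a high percentile of the bacterial control probe sets on each array. Sftpc, the defining surfactant gene of type II cells, was not above it on any wild-type array. It read 55.1 to 144.9 in knockout and 73.8 to 131.8 with GSH. Abca3, the lipid transporter of the same cells, was detected on all 9 arrays at 801 to 1647. The labels give 1 tissue per sample without saying that a group's samples were different animals or cultures. A p-value therefore reflects only how far these arrays scatter, possibly for technical reasons, and 3 arrays per group limit the precision.

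Msln was high in wild type, low in knockout and high again in knockout cells with GSH. Its only probe set, 1460238_at, gave 6121, 5979 and 4997 units of signal on the wild-type arrays. On the knockout arrays the signals were 929.8, 1055 and 846, and on the arrays with GSH they were 7099.5, 7499.6 and 6557. No array of a group reached the range of another group, and the order from low to high was knockout, wild type, knockout with GSH. The knockout mean of 944 ± 105 (SD, n = 3) was 16.6% of the wild-type mean of 5699 ± 612 (SD, n = 3), a log2 difference of -2.59 ± 0.07 (standard error). With GSH the mean was 7052 ± 473 (SD, n = 3), 7.47 times that of knockout and 1.24 times that of wild type. The log2 difference from knockout was 2.91 ± 0.07 (standard error), and that from wild type was 0.31 ± 0.07 (standard error). The difference between GSH and wild type was 0.27 in set 2 alone and 0.39 between the single arrays of set 3. Fewer cells of a type and less RNA per cell cannot be told apart in such bulk samples.

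The uroplakins stood in descending steps instead. Upk1b, a tetraspanin that pairs with uroplakin 3 proteins in the membrane, gave 3319, 3329 and 3186 in wild type with probe set 1457065_at. The same probe set gave 917, 849 and 924 in knockout and 358, 358 and 403.5 with GSH. These 3 ranges lay far apart, with knockout at 27.4% of wild type by the means and the GSH arrays at 11.4%. The log2 differences were -1.87 ± 0.08 between knockout and wild type and -1.27 ± 0.08 between GSH and knockout (standard errors). The other 3 Upk1b probe sets had the same order without overlap. Probe sets 1435831_at and 1455464_x_at had GSH means at 4.01% and 5.11% of wild type. For 1439760_x_at, whose suffix marks probes that may also bind other transcripts, the difference was smaller, at 23.4% of wild type.

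Upk3b, a uroplakin 3 family member with a single membrane span, had the same order. Probe set 1454881_s_at gave 1840.4, 1883 and 1601 in wild type, 359, 284 and 382 in the knockout, and 40.2, 54.0 and 63.6 with GSH, where 1 of 3 arrays lay above the control level. The groups were again separate at both steps, and the GSH mean was 2.96% of the wild-type mean. The second probe set, 1434237_at, gave 1284 ± 63.2 in wild type and 233 ± 18.7 in knockout (SD, n = 3), a log2 difference of -2.47 ± 0.22 (standard error). With GSH it read 27.0, 17.4 and 14.8, not above the control level on any of the 3 arrays. Its signal there was at least 21.3-fold lower than in wild type and at least 3.85-fold lower than in knockout. Such bounds set the mean of the brighter group against the control level, or against the probe set's own signal where that was higher.

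Gpm6a and Lrrn4, membrane proteins known mainly from neurons, were both low with GSH but differed in the knockout. Gpm6a probe set 1456741_s_at gave 449, 445 and 419 in wild type, 364, 348 and 311 in the knockout, and 53.0, 40.3 and 28.8 with GSH. Wild type and knockout were close, with a log2 difference of -0.36 ± 0.19 (standard error), although their arrays did not overlap. The GSH arrays were all at or below the control level, at least 7.25-fold lower than wild type and at least 5.64-fold lower than knockout. The second Gpm6a probe set, 1426442_at, had the same order, with means of 354 ± 68.3, 247 ± 42.6 and 30.5 ± 15.9 (SD, n = 3), the last not above the control level. Lrrn4, a leucine-rich repeat protein, gave 1226, 1228 and 988.5 in wild type, 552, 501 and 424 in the knockout, and 130.1, 131 and 87.1 with GSH. Its knockout mean was 42.9% and its GSH mean 10.1% of the wild-type mean, and the log2 differences at the successive steps were -1.22 ± 0.11 and -2.10 ± 0.11 (standard errors).

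The transcription factors stood at 81.1% (Wt1) and 63.6% (Bnc1) of their wild-type means in knockout and were low with GSH. Wt1, a zinc-finger factor on which the development of mesothelium and kidney depends, gave 1618.5, 1708 and 1961 in wild type and 1378, 1257 and 1650.5 in knockout. These 2 groups overlapped, and their log2 difference was -0.31 ± 0.09 (standard error); over 20 alternative settings it ran from -0.38 to -0.17. With GSH the Wt1 signals were 258, 256 and 382, well apart from both other groups, at a mean of 299 ± 72.1 (SD, n = 3) or 20.9% of knockout. Bnc1, basonuclin 1, known from basal keratinocytes and germ cells as well as mesothelium, gave 1936, 2109 and 2678 in wild type, 1243, 1273.5 and 1757 in the knockout, and 221, 220.1 and 304 with GSH. Its 3 groups did not overlap. The log2 difference was -0.66 ± 0.07 between knockout and wild type and -2.52 ± 0.07 between GSH and knockout (standard errors).

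**Figure D1:**
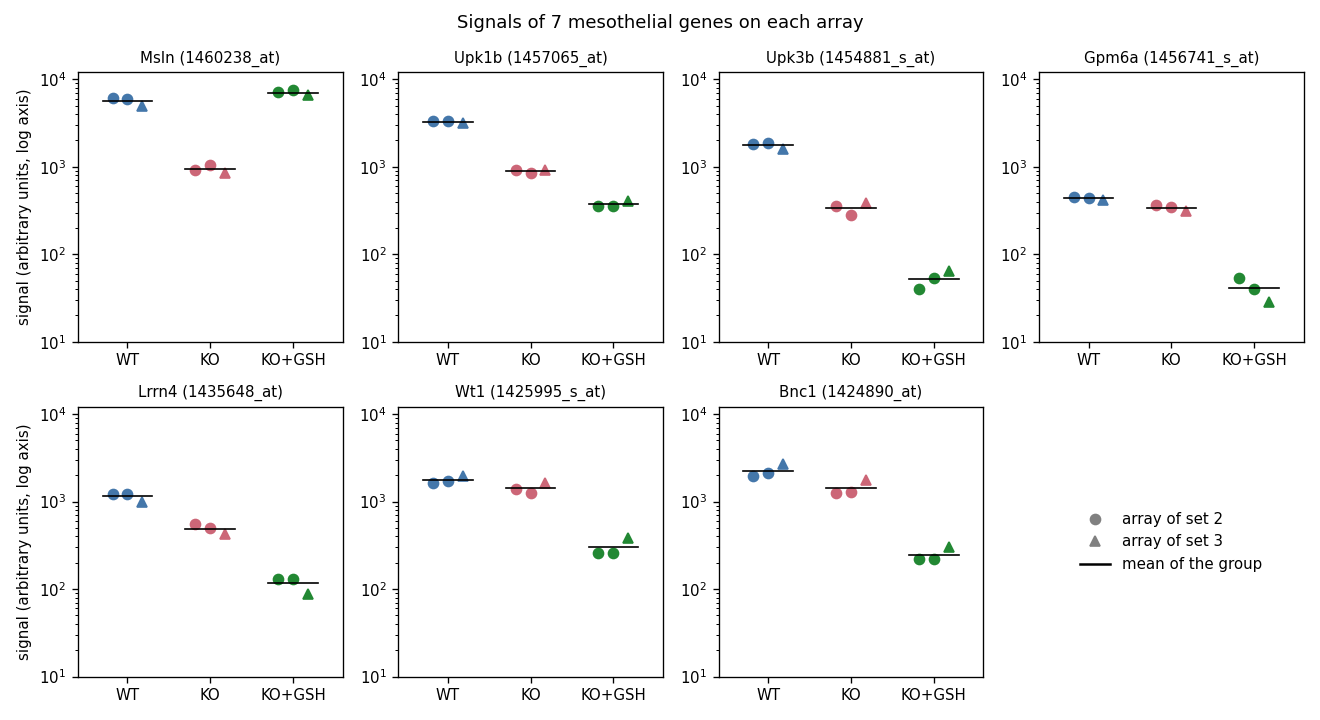
Signal of each of the 7 genes on each of the 9 arrays (arbitrary units, log axis) for the probe set with the highest mean, by group: WT, wild type; KO, knockout; KO+GSH, knockout with GSH. Circles are arrays of set 2, triangles arrays of set 3 and bars the group means; Msln stood at a mean of 7052 with GSH, while the other 6 genes had their lowest signals there.

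Read together with all probe sets, 10 of the 12 were called lower in knockout than in wild type at a limma adjusted p under 0.05, where 14.6% of all tested probe sets were called lower. The 2 Gpm6a probe sets were not called. In either direction 29.1% of all were called, and 14.6% were called higher. Groups did not overlap for 11 of the 12, all lower in knockout, against 14.4% lower and 15.8% higher of all probe sets; the exception was Wt1. Between GSH and knockout 11 were called lower and 1, Msln, higher, where 17.0% and 18.4% of all were called (35.4% in either direction). The groups of all 12 were separate, against 16.4% lower and 17.2% higher of all. Between GSH and wild type 11 were called lower and 1 higher, where 22.3% and 22.5% of all were called (44.7% in either direction), and all 12 were separate, against 21.1% lower and 22.3% higher of all. The choice of the genes rests on these same comparisons, so nothing is read from these counts. The comparisons also share arrays, since the knockout arrays enter both steps.

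**Figure D2:**
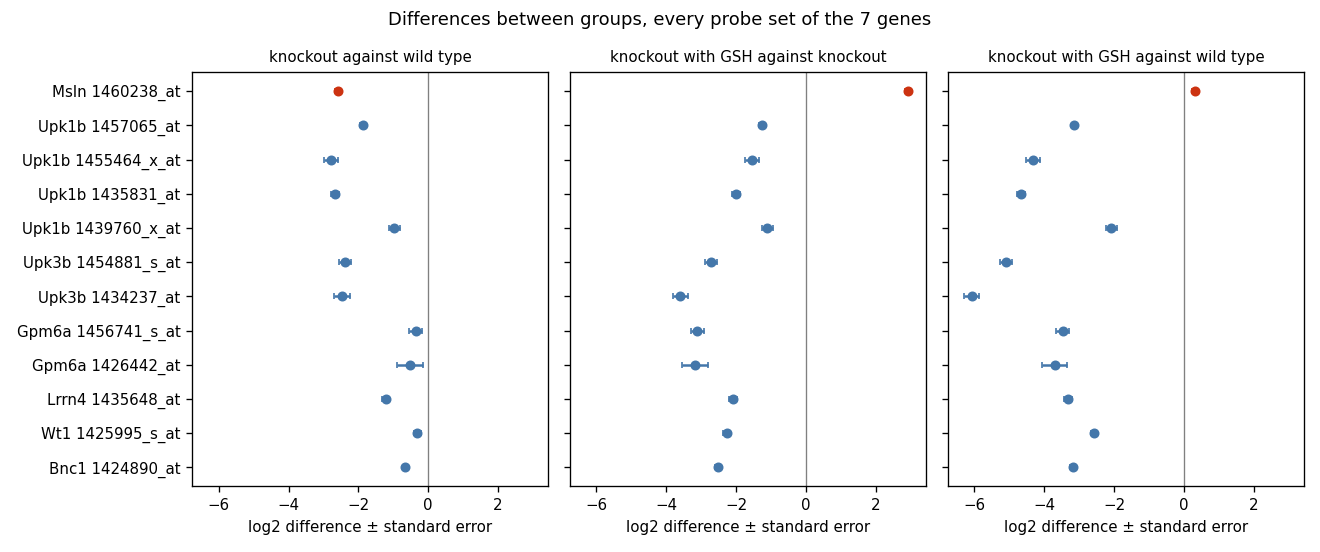
Log2 difference between groups (x axis, with standard error) for every probe set of the 7 genes, in the 3 comparisons. Msln, in red, lies at -2.59, 2.91 and 0.31, and each other probe set lies below 0 in all 3 panels; for 1434237_at and both Gpm6a probe sets the GSH signals were not above the control level, so their measured differences in the panels with GSH stand in place of the bounds given in the text.

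Msln thus stood with the others at the first step and against them at the second. Between knockout and wild type its log2 difference of -2.59 was close to that of Upk3b (-2.38) and, by the brightest probe set of each gene, beyond those of Upk1b (-1.87), Lrrn4 (-1.22), Bnc1 (-0.66), Gpm6a (-0.36) and Wt1 (-0.31). Upk1b has no settled place in this order, since its probe sets 1435831_at and 1455464_x_at gave -2.68 and -2.78, beyond Msln, and 1439760_x_at gave -0.97. Between GSH and knockout Msln exceeded Upk1b by 4.17 on the log2 scale, Lrrn4 by 5.00, Wt1 by 5.18 and Bnc1 by 5.42. Upk3b and Gpm6a are left out of this range, because their signals with GSH were mostly or wholly not above the control level. A measure of likeness was taken over the 9 arrays: the root mean square distance between the log2 signals of a pair of genes, each by its brightest probe set and less its own mean. Msln lay 1.83 to 2.61 from the other 6 genes, with a median of 2.20, nearest to Upk1b and farthest from Upk3b. Among those 6 genes the 15 distances ran from 0.26 to 1.11 with a median of 0.61. Wt1 and Bnc1 were the nearest pair, at 0.26, and Wt1 and Upk3b the farthest, at 1.11. Even that largest distance was smaller than the smallest one to Msln as measured; distances of Upk3b and Gpm6a rest in part on signals at the control level. With each set centred on its own mean the median distance to Msln was 2.18 and that among the others 0.58.

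**Figure D3:**
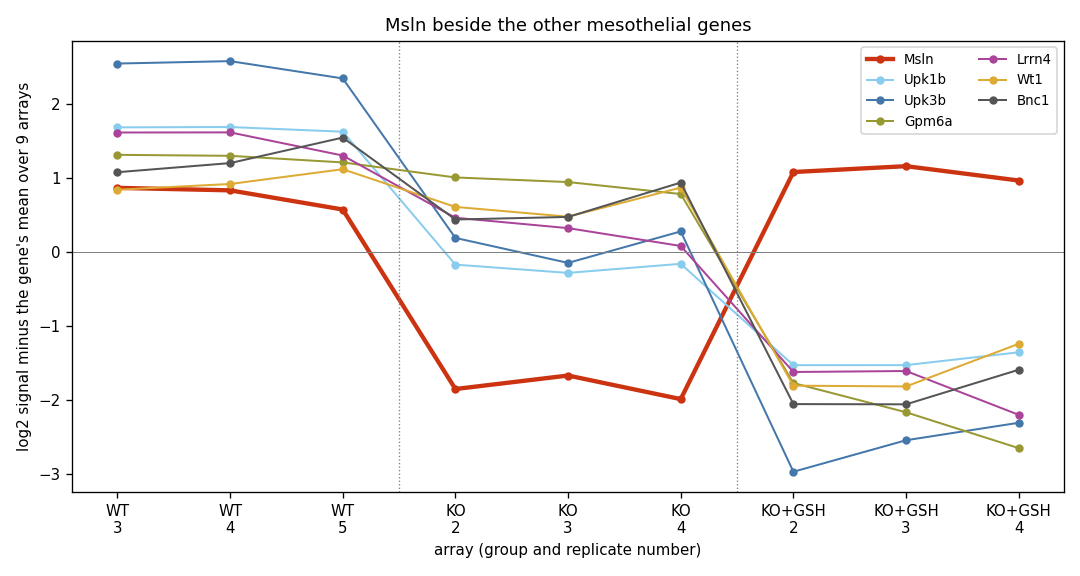
Log2 signal less the gene's own mean over the 9 arrays (y axis) for each array (x axis, group and replicate number), 1 line per gene. The red line, Msln, is the only one with its low point on the knockout arrays and its high point on the arrays with GSH.

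The genes whose centred signals lay nearest to Msln over the 9 arrays, 1 probe set per gene, were Acta1, Ano1, Krt7, Krt19 and Fgf13. Acta1, the actin of skeletal muscle, was at a distance of 0.11, with means of 5894 ± 632 in wild type, 1112 ± 73.7 in the knockout and 7219 ± 676 with GSH (SD, n = 3). Ano1, a calcium-activated chloride channel, followed at 0.16, with 3268 ± 383, 561 ± 103 and 5012 ± 297 in the same order. Krt7 and Krt19, keratins of simple epithelia and also of mesothelium, were at 0.19 and 0.20, and Fgf13, a fibroblast growth factor family member that stays inside the cell, at 0.21. Krt7 stood at 8278 ± 73.1 in wild type, 1482 ± 114 in the knockout and 12493 ± 909.7 with GSH (SD, n = 3). None of the 5 nearest genes to Upk1b, taken as the second reference because its probe set 1457065_at was the brightest of the other 6 genes, was among them. Those were Efemp1 (0.29), a matrix fibulin, Il11 (0.37), a cytokine, Pgf (0.38), placental growth factor, Fkbp11 (0.38), a prolyl isomerase, and Cldn10 (0.40), a claudin. Efemp1 stood at 1573 ± 254 in wild type, 425 ± 136 in the knockout and 167 ± 56.5 with GSH, and Il11 at 2932 ± 146, 1406 ± 84.6 and 465 ± 67.3 (SD, n = 3).

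The difference between the sets offers a comparison that had no part in choosing the genes, though it was added after the values had been seen. Limma called 38.9% of all probe sets between set 3 and set 2, with 17.4% higher and 21.5% lower, and 7 of the 12 probe sets described here, 4 higher and 3 lower. Msln was lower in set 3 by its fitted log2 difference of -0.22 ± 0.06 (limma adjusted p = 0.011), as was Lrrn4 (-0.40 ± 0.10, limma adjusted p = 0.0080). Bnc1 was higher (0.45 ± 0.06, limma adjusted p = 4.0e-04), as were Wt1 (0.38 ± 0.08, limma adjusted p = 0.0033) and Upk1b by probe set 1435831_at (0.45 ± 0.10, limma adjusted p = 0.0038). Upk1b itself was not uniform: 1455464_x_at was also higher (0.63), 1439760_x_at was lower (-0.48) and 1457065_at was not called (0.06, limma adjusted p = 0.51). Neither Upk3b nor Gpm6a was called. Without knockout replicate 4, 1 of the 3 arrays of set 3, the count over all probe sets was 5488 in place of 8757.

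Of the 7 genes 4, Upk3b, Lrrn4, Gpm6a and Bnc1, had a promoter window in the RefSeq table of build GRCm38.p6, running from 250 bases before to 50 bases after a start site. Since these 4 genes were low together with GSH, their windows are shown, with Gpm6a at the first of its 2 listed starts. Capitals mark matches, on either strand, to letters that are commonly used for known binding sites: TGACNNNGC for the antioxidant response element that Nrf2 binds, GGAATG for TEAD factors, GGGCGG for the GC box, TATAAA for the TATA box, and GCGTGGGCG or GCGGGGGCG for the related factors EGR1 and WT1.
Upk3b, chr5:136038246-136038545, plus strand: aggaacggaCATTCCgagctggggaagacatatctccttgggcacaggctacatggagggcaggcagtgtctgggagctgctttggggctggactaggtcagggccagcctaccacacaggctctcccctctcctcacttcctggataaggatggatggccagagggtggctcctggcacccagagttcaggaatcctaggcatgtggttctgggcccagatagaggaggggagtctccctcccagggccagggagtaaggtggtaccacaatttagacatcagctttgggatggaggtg
Lrrn4, chr2:132880813-132881112, minus strand: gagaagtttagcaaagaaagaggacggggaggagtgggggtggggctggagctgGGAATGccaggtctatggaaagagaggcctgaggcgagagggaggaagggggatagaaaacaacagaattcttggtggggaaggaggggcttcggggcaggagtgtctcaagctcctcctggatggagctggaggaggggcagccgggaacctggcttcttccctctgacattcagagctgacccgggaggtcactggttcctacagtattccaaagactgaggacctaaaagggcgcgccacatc
Gpm6a, chr8:54779184-54779483, plus strand: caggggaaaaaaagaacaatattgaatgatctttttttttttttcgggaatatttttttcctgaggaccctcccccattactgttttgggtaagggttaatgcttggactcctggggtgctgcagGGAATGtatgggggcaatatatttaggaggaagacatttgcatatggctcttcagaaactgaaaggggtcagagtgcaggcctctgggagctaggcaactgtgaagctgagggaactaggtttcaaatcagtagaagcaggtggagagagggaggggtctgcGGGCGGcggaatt
Bnc1, chr7:81992250-81992549, minus strand: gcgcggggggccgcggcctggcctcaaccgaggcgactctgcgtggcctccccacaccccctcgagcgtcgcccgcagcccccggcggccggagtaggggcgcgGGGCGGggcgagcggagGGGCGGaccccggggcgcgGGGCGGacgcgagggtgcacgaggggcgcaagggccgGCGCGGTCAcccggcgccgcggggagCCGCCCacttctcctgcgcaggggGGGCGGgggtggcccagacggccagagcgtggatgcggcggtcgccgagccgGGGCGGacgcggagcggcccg

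The TEAD letters stood in the Upk3b window from 241 bases before the start, in that of Lrrn4 from 196 and in that of Gpm6a from 125. They occur in 14.7% of all 32851 windows of this length. Bnc1 had the antioxidant response element letters on the reverse strand 73 bases before its start, which 12.4% of all windows hold, and 6 GC boxes, which 35.7% of windows hold. The first Gpm6a window also held a GC box, just after the start. The second Gpm6a window held the TATA letters (13.6% of windows), on the reverse strand from 211 bases before its start, and none of the other motifs. Neither form of the EGR1 and WT1 site was found in these windows, and 0.61% and 2.91% of all windows hold them. No match overlapped another motif. A match says only that these letters are present.

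The gene lists from here on were drawn up with earlier results of these data known, so their calls are no independent support. Other genes of mesothelium, from a list of 29 that leaves out the 7, were tested in the same limma fit. Of 28 on the array, 19 passed the filter. In knockout against wild type 2 were higher and 7 lower, where 16.7% and 15.7% of all genes were called, and the median log2 difference was -0.22 against 0.01 over all genes. Efemp1 had the smallest p, with a fall from 1573 ± 254 to 425 ± 136 (SD, n = 3; log2 difference -1.92, limma adjusted p = 4.3e-07). Thbd, thrombomodulin, fell from 4123 ± 135 to 2362 ± 71.4 (-0.80, limma adjusted p = 2.4e-06). Lower in knockout too were Cdh2, N-cadherin (log2 difference -0.72), Ildr2 (-1.09), the carboxypeptidase gene Cpe (-0.48) and the annexin gene Anxa8 (-0.42). Gas1, a membrane protein of resting cells, rose by 0.51 and Rarres2, which encodes chemerin, by 0.94. Without the array of replicate 3 with GSH, which enters only through the shared spread, 4 in place of 2 genes were higher. With the replicate number as a block, in set 2 alone and under the 70th percentile filter, 1 was. The block puts wild type replicate 4, of set 2, with the knockout arrays numbered 4, of set 3. Against wild type it therefore mixes the sets. Aldh1a2, the retinoic acid-making enzyme of mesothelium, read 3293 ± 307 and 3243 ± 276 (SD, n = 3) and was not called (limma adjusted p = 0.88).

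Some of these genes are known from other cells as well, Gas1 and Cdh2 from fibroblasts and Thbd from endothelium. Against knockout 4 genes were higher and 12 lower, where 19.7% and 19.8% of all genes were called, and the median log2 difference was -1.26 against 0.01 over all genes. Gas1 fell from 4435 ± 164 to 660 ± 109 (SD, n = 3; -2.76, limma adjusted p = 9.1e-10) and Thbd from 2362 ± 71.4 to 755 ± 44.8 (-1.65, limma adjusted p = 3.8e-09). Aldh1a2 fell to 1076 ± 234 (-1.61), Ptgis, prostacyclin synthase, from 7619 ± 1117 to 2670.1 ± 225 (-1.51), and Cdh2 to 854 ± 196 (-1.26). Igfbp6, which binds insulin-like growth factors, fell by 2.17 on the log2 scale. Sema3d, a guidance cue, fell from 369 ± 30.8 to 44.9 ± 2.22 (SD, n = 3), which was not above the control level on any array with GSH. Anxa8 went up with Msln, from 1096 ± 218 to 1988.5 ± 262 (SD, n = 3; 0.87, limma adjusted p = 2.7e-06). Against wild type 4 were higher and 14 lower, where 23.5% and 24.5% of all genes were called, with a median of -1.63; with the replicate number as a block 2 were higher. The summed signal of the 28 genes ran from 67986 to 69194.5 in wild type, from 55949 to 63732 in the knockout and from 48434 to 58602 with GSH, so the last 2 ranges overlapped. Clu, the clusterin gene, made up much of this sum; without it the ranges were 48568 to 51733, 39183 to 43074 and 26082.5 to 26764, with no overlap, a sum taken after the values had been seen.

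The 9 genes of this list that were too dim to be tested included several classical markers. Calb2, which encodes calretinin, averaged 41.3 in wild type, 204 in the knockout and 81.2 with GSH, above the control level on 1, 3 and 1 of the 3 arrays. Nkain4 averaged 127 in knockout and was not above the control level on any wild-type or GSH array. Rspo1, a secreted Wnt amplifier, averaged 190.5 in wild type, 187 in the knockout and 31.9 with GSH, the last never above the control level. Muc16, the partner of mesothelin, averaged 119, 74.1 and 151 in the same order and was above the control level on all 9 arrays. The Muc16 means had the order of Msln, lowest in knockout and highest with GSH, but it was not tested.

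**Figure D4:**
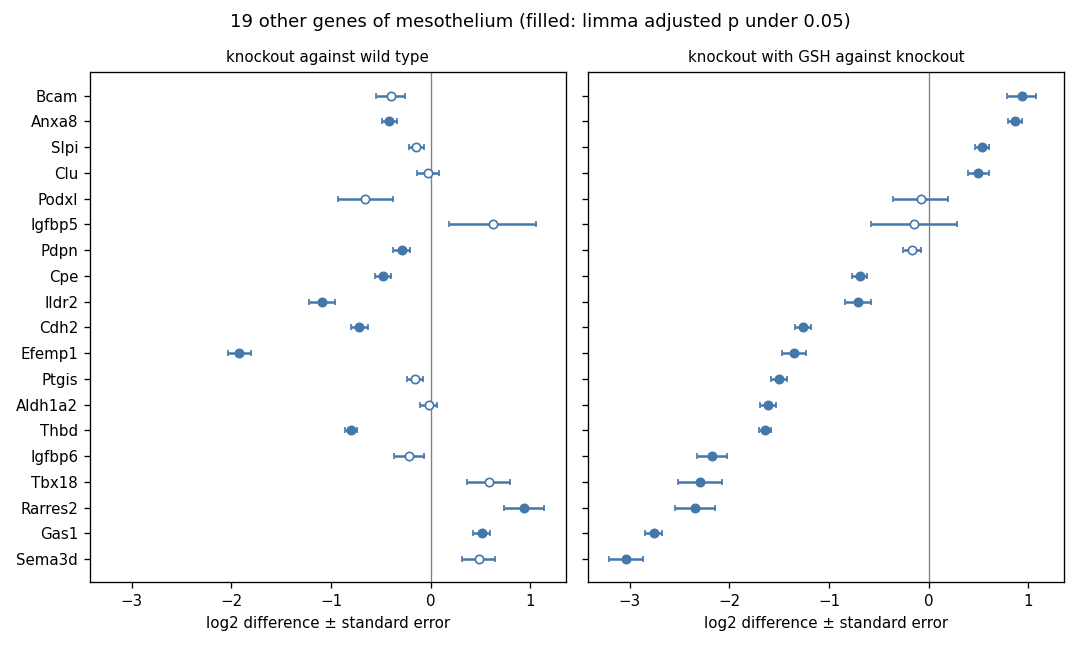
Log2 difference (x axis, with standard error) of the 19 tested genes of the wider mesothelial list, between knockout and wild type and between GSH and knockout; filled points passed a limma adjusted p under 0.05. On the right 12 genes lie to the left of 0 as filled points and 4, Bcam, Anxa8, Slpi and Clu, to the right; Sema3d with GSH was not above the control level.

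Of the relatives of the 7 genes few could be tested. Of 12 family members and partners 10 were on the array and 5 passed the filter. Gpm6b, the sister gene of Gpm6a, did not share its pattern by the means: it rose from 696 ± 47.5 in wild type to 2075 ± 523 in knockout (SD, n = 3; 1.54, limma adjusted p = 6.7e-06) and fell to 384 ± 3.71 with GSH (-2.40, limma adjusted p = 9.7e-08). Bnc2, the sister gene of Bnc1, fell from 532 ± 77.1 in knockout to 106 ± 1.49 with GSH (SD, n = 3; -2.32, limma adjusted p = 2.1e-07) and was not called between knockout and wild type (0.31, limma adjusted p = 0.13). The bladder uroplakins Upk1a and Upk2 were called in none of the 3 comparisons, with means of 181 to 263 and 322 to 389. Upk3bl, a close relative of Upk3b, was higher with GSH than in knockout (198 ± 8.76 against 120.3 ± 43.0, SD, n = 3; 0.79, limma adjusted p = 0.024). That call was lost in set 2 alone, without the set term and with the replicate number as a block. It was lost too under the 70th percentile filter and without replicate 4 of either group. In this list 1 gene was higher and 0 lower in knockout against wild type, where 16.7% and 15.7% of all genes were called. Between GSH and knockout 1 was higher and 2 lower, where 19.7% and 19.8% of all were called. Between GSH and wild type 0 were higher and 2 lower, where 23.5% and 24.5% of all were called. With 5 genes tested, nothing is read from these counts.

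Genes reported as targets of WT1 were taken as a list of 13, of which 10 were tested. The list gives no expected direction for a gene, so nothing on WT1 activity is read from its counts or medians. In knockout against wild type 3 were higher and 2 lower (median 0.13), where 16.7% and 15.7% of all genes were called, and without the set term 1 was higher and 1 lower. Between GSH and knockout 3 were higher and 5 lower (median -0.49), where 19.7% and 19.8% of all were called. Bmper, a regulator of BMP signalling, fell with GSH from 5335 ± 556 to 1143 ± 101 (SD, n = 3; -2.22, limma adjusted p = 1.0e-09). Snai1, a repressor of E-cadherin, was lower as well (-2.02), and so was the ligand gene Wnt4 (-2.05). Cdh1, E-cadherin itself, rose by 1.75 (limma adjusted p = 7.7e-09), and the integrin gene Itga4 was higher by 0.94. Between GSH and wild type 2 were higher and 5 lower, where 23.5% and 24.5% of all genes were called. This list shares Aldh1a2 and Podxl with the wider mesothelial list and Cdh1 with the simple epithelial genes.

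Marker genes of other cell types changed beside the 7 genes. Over all genes 16.7% were called higher and 15.7% lower in knockout than in wild type. Between GSH and knockout the shares were 19.7% and 19.8%, and between GSH and wild type 23.5% and 24.5%. Of 15 tested simple epithelial genes, 0 were higher and 14 lower in knockout than in wild type, 15 were higher with GSH than in knockout, and 14 (8 with the replicate number as a block) were higher with GSH than in wild type. Their summed signal ran from 57747 to 58594 in wild type, from 17990 to 18125 in the knockout and from 79456 to 87375 with GSH. This was the order of Msln, and Krt7 and Krt19 were both in this list and among the genes nearest to Msln. Prss8, a serine protease, was the only one of its 17 genes not above the control level on any knockout array. The summed signal of the other 6 mesothelial genes ran from 10390 to 10833, from 4513 to 5449 and from 1060 to 1269.5 in the same order. Of 13 tested fibroblast genes, 9 were higher and 1 lower in knockout than in wild type (median log2 difference 0.40). With GSH 0 were higher and 11 lower than in knockout (median -2.54). Col3a1 (-3.52), Mfap5 (-2.90) and Dcn (-2.93) had the smallest p there. Between GSH and wild type 1 was higher (0 to 2 over the alternatives) and 11 lower. The summed fibroblast signal ran from 91325 to 99915 in wild type, from 114379 to 148812 in knockout and from 56948 to 66175 with GSH. It was low beside the 6 genes with GSH and stood against them in knockout. Vim and Fn1, among the list's brightest genes, were not called between GSH and knockout. The sum therefore fell less than most of the list. With quantile normalisation 5 in place of 9 fibroblast genes were higher in knockout, as with the replicate number as a block, and 1 was higher with GSH than in knockout.

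Macrophage genes had the opposite order to the 6 mesothelial genes at both steps. Of 14 tested, 12 were higher and 2 lower in knockout, and 9 were higher and 2 lower with GSH than in knockout (0 lower with the replicate number as a block, and 1 without knockout replicate 3 or any 1 of the GSH arrays). Their sum ran from 39445.5 to 41038.5 in wild type, from 74417 to 81730.1 in the knockout and from 101671 to 118549.6 with GSH. Endothelial genes summed to 4243 to 4922 in wild type, 2802 to 3299.5 in the knockout and 2540.1 to 3214 with GSH, with 0 higher and 3 lower of 8 tested in knockout and 1 higher and 3 lower with GSH than in knockout, the 3 becoming 5 without replicate 2 with GSH. Of the smooth muscle genes, 7 tested, 2 were higher and 2 lower in knockout (1 and 1 without wild type replicate 3 or replicate 4). With GSH 0 were higher and 5 lower than in knockout. Dpt of the fibroblast list and Tie1 of the endothelial list were not above the control level on any array with GSH; no gene of these 5 lists was so on all 9 arrays. Lung epithelial lists were tested as well, beside the same shares of all genes. Of 11 type I cell genes 8 were lower in knockout (5 with the replicate number as a block) and 5 were higher with GSH than in knockout. Of 9 type II cell genes 3 were higher in knockout, Cd74, Napsa and Lyz2, and 1, the surfactant gene Sftpd, was lower. The others, the surfactant gene Sftpb among them, were not called there, so this list did not move as 1 in knockout. With GSH 5 were higher than in knockout. Of 4 club cell genes 3 were lower in knockout. With GSH 2 were higher (1 without replicate 4 of either knockout group) and 1 lower than in knockout. Between GSH and wild type, where 23.5% and 24.5% of all genes were called, 13 macrophage genes were higher and 0 lower. All 8 tested endothelial genes were lower there, but 3 in set 2 alone and 5 with the replicate number as a block. Smooth muscle genes were 0 higher and 6 lower, and club cell genes 0 higher and 3 lower. Of the type I cell genes 2 were higher and 4 lower (2 lower with the block). Of the type II cell genes 5 were higher and 0 lower (3 and 1 with the block). The part of these cell types in the levels of the 7 genes was not tested.

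**Figure D5:**
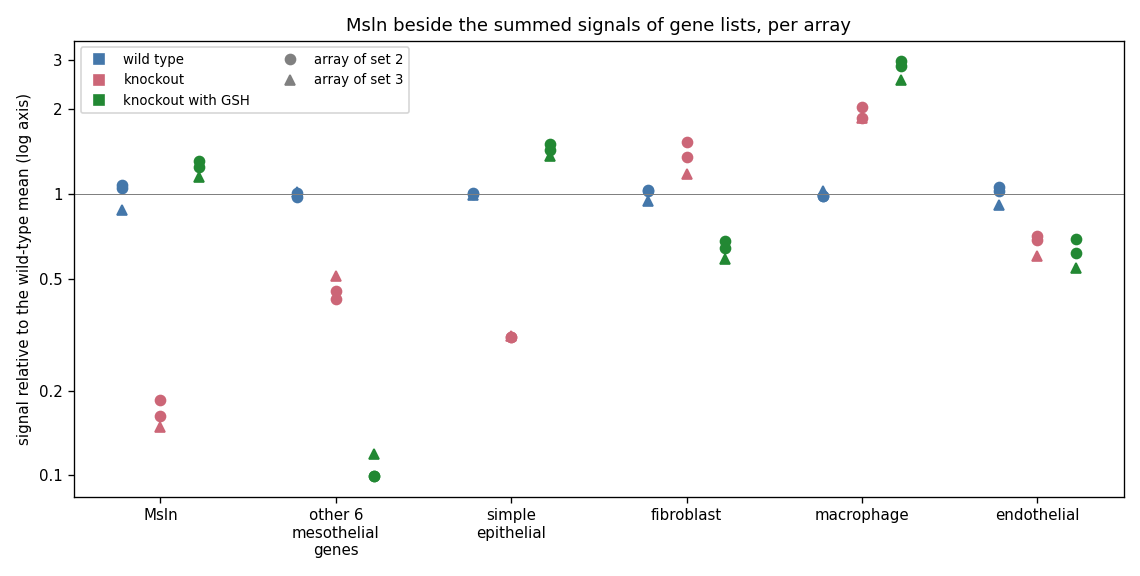
Signal of Msln and summed signal of gene lists on each array, relative to the mean of the wild-type arrays (log axis), coloured by group; circles are arrays of set 2 and triangles arrays of set 3. Msln and the simple epithelial genes are lowest in knockout, the other 6 mesothelial genes are lowest with GSH, and macrophage genes are highest with GSH.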

How the data were processed

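RNA was measured on Affymetrix mouse arrays with 1 colour, per the series design text. The deposited table gives 1 linear intensity per probe set and array; how the authors summarised and scaled the probes is not stated in the labels, but every array has a 2% trimmed mean of 500.0. Of 45101 probe sets 64 controls were left out. Intensities were taken to log2 after 2 values below 0.1 had been set to 0.1, and 22519 probe sets whose mean log2 intensity reached the median (a geometric mean of 116) were kept. The control level is the 95th percentile of 27 poly-A control probe sets, 43.45 to 82.94 by array. In GEO's annotation of the platform, 34945 probe sets had 1 symbol, 932 several and 9160 none; the 7 member symbols are all in the RefSeq gene table.

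A single model, limma 3.58.1 under R 4.3.3, took in all 9 arrays with group and set as terms and a variance trend on intensity (residual degrees of freedom 5, prior 6.08), and p was adjusted over all kept probe sets by Benjamini-Hochberg. Lists were counted over 11620 genes, each by its brightest probe set on average. The fit was run on simulated data for knockout against wild type only. Changes were placed there in probe sets with a spread below the median, so recovery says little about the calls made here. The members and lists were chosen with earlier results of these data known. Named list genes were those with the smallest p among the called (up to 8 in the first 3 lists, up to 3 in others); Krt7 was named under the list and as a near neighbour. Calb2, Nkain4, Rspo1, Muc16, Slpi, Bcam, Clu, Podxl, Upk1a and Upk2 were named beyond this rule, after their values had been seen. So were Sftpc, Sftpb, Lyz2, Abca3, Prss8, Dpt, Tie1, Vim and Fn1, and Aldh1a2 in knockout against wild type. The knockout groups have replicate numbers 2, 3 and 4 in common, and deviations of same-numbered arrays from their group means had correlations of 0.32, 0.29 and 0.67. The set was not removed from these deviations, and the knockout arrays numbered 4 are those of set 3, so the correlations do not settle whether arrays were paired. The main fit holds no term for pairing. Only the replicate block uses the numbers, and it joins wild type by them too. Wild type and knockout share numbers 3 and 4 at 0.42 and -0.49 and were not taken as paired.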

Additional observations from a re-analysis of the deposited data

How the results depend on the processing

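The differences of the 12 probe sets were recomputed under 20 alternatives per comparison, 720 values in all. All 720 kept their sign, and 703 moved by less than the spread between arrays of a group and 17 by more. Many of these settings could not move a difference. Filters and the intensity trend do not enter it, and the sets are balanced over the groups. Dropping the set term, or arrays of a group outside the comparison, therefore leaves it unchanged. Signs kept under such settings carry no information. The Msln difference lay between -2.69 and -2.55 for knockout against wild type, between 2.86 and 2.96 for GSH against knockout, and between 0.22 and 0.39 for GSH against wild type. Its median distance from the other genes was 2.18 with each set centred on its own mean. With a single Msln probe set, the planned exchange of Msln probe sets was not run.

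Counts over all probe sets moved more. Without the set term they were 2774, 4574 and 6181 for knockout against wild type, GSH against knockout and GSH against wild type, in place of 6560, 7964 and 10074. With the replicate block, the number as a term in place of the set, they were 3253, 5824 and 6586. This block joins wild type replicate 4, of set 2, to knockout arrays of set 3 and leaves wild type replicate 5 on its own. Its counts against wild type thus mix the sets and are a poor measure of how firm those calls are. By the rule of the series design text the counts were 2147, 3260 and 4351. Leaving out each array in turn gave 4500 to 6825, 6659 to 7847 and 8184 to 10452. The cause was not tested; the design text rule asks for a larger difference by its construction. Of 1254 list counts under alternatives 88 moved, which means a change by over 1.5 times or any change to or from 0. With the block, 8 in place of 14 simple epithelial genes were higher with GSH than in wild type, as were 2 in place of 4 wider mesothelial genes. Under the 70th percentile filter, which tests fewer genes, 8 in place of 12 wider mesothelial genes were lower with GSH than in knockout. Signals near the control level limit Upk3b and Gpm6a with GSH to bounds.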
